A study of Mus musculus with 6 samples.

Results

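The genes described are the mouse histone modifiers and chromatin remodellers, chosen by symbol alone. They are the protein-coding genes named Kdm with a digit (Kdm5d left out), Kmt2 or Kmt5 with a letter, Setd with a digit or letter, Kat with a digit, Chd with a digit and Smarc with a letter, together with Ezh1, Ezh2, Ehmt1, Ehmt2, Ep300 and Crebbp. The rule found 72 of the 43432 listed genes, and all 72 had a count. They fall into 17 demethylases, 22 methyltransferases, 10 acetyltransferases, 10 CHD remodellers and 13 Smarc remodellers. A further 7 symbols that match the rule belong to pseudogenes or non-coding genes and were left out.

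The libraries came from primary cortical neurons of wild-type C57BL/6 mouse embryos at E16.5, males and females pooled, grown for 7 days in culture. All cultures, the 0 h group included, were silenced overnight with 1 µM tetrodotoxin, a blocker of sodium channels, and 100 µM DL-AP5, a blocker of NMDA receptors. They were then held in 55 mM KCl, which depolarizes the membrane, for 0 h, 2 h or 6 h, with 2 replicates at each time and 6 libraries in all. The comparisons ask how mRNA levels move early and late after depolarization, with 0 h as the untreated background. The cultures are a mix of cells from dissociated cortex with no sorting step given, and the study stained them for Tuj1 and GFAP, a neuronal and a glial marker.

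DNA in the nucleus is wrapped on histones, and the members of this group change how that wrapping works. Acetyltransferases add acetyl groups to histone lysines, mostly at active genes and enhancers. Methyltransferases and demethylases add and remove methyl groups, some of which go with active genes and others with silenced ones. Remodellers of the Smarc and CHD families use ATP to slide, eject or exchange nucleosomes. In neurons, Crebbp and Ep300 are recruited by activity-dependent transcription factors such as CREB, and many of these genes are known causes of intellectual disability when a copy is lost.

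The expected counts, which are the authors' estimates of reads per gene, summed to 25959298 to 28573067 per library. The members together took 0.766% and 0.773% of the counts at 0 h, 0.690% and 0.743% at 2 h, and 0.792% in both 6 h libraries. The known activity genes followed the time labels, and the normalized counts of Fos were 38.2 and 34.6 at 0 h, rose to 6939 and 8222 at 2 h and then came to 3915 and 3806 at 6 h. Neuron markers summed to 3307 to 3940 TPM (a level per unit of transcript length, with an equal total in each library) in every library, against 2.61 to 6.78 TPM for microglia markers. Of the 10 neuron markers, 6 were higher and 2 lower at 6 h than at 0 h, and Tubb3 went from 1639 and 1679 TPM to 666 and 794 while Gad1 went from 159 and 156 to 386 and 355. Astrocyte markers summed to 836 and 906 TPM at 0 h, then 787 and 822 at 2 h, and 632 and 604 at 6 h, and 5 of the 8 were lower at 6 h than at 0 h. Markers of progenitors and dividing cells summed to 527 and 564 TPM at 0 h, then 590 and 678 at 2 h, and 816 and 820 at 6 h, with 3 of the 12 higher (Vim, Nes and Pax6) and 3 lower (Top2a, Mcm2 and Hes5) at 6 h. That sum rests on Vim, which went from 209 and 230 TPM at 0 h to 500.3 and 520.0 at 6 h, while Top2a, a gene of dividing cells, went from 50.3 and 54.4 to 37.0 and 33.3. Oligodendrocyte lineage markers summed to 129 and 152 TPM at 0 h, then 98.9 and 116 at 2 h, and 124 and 134 at 6 h. Of these 8, 1 was lower at 2 h than at 0 h, and 3 were higher and 1 lower at 6 h than at 2 h. Sox10 among them went from 5.92 and 8.38 TPM to 0.80 and 1.27 and then to 4.90 and 4.82. The part of these markers in the results below was not tested, and fewer cells of a type cannot be told apart from less RNA per cell. The 2 replicates at 2 h stood further apart than the others. The members' median absolute log2 ratio between replicates was 0.21 at 2 h, against 0.06 at 0 h and 0.08 at 6 h, for the 68 members with a mean count of at least 100.

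At 2 h the members leaned down, and at 6 h they leaned up. Normalized counts are expected counts divided by a size factor per library, and a member passed the test with an adjusted p of up to 0.05 in DESeq2. At 2 h against 0 h, 12 of the 72 members were higher and 21 were lower, or 16.7% and 29.2%, where 12.3% and 14.2% of all 16840 tested genes were higher and lower. At 6 h against 0 h, 32 were higher and 12 lower, or 44.4% and 16.7%, against 23.7% and 21.7% of all 17277 tested genes. At 6 h against 2 h, 36 were higher and 12 lower, or 50% and 16.7%, against 24.1% and 21.2% of all 16404 tested genes. The median log2 fold change of the members was -0.10, 0.22 and 0.36 in the 3 comparisons, where that of all tested genes was 0.02, 0.00 and -0.01. Without 2 h replicate 2 the members' median at 2 h against 0 h was -0.18. These counts are given with no test of the group as a whole. The median normalized count was 2173 for the members and 467 for the 15016 protein-coding genes tested at 6 h against 0 h. The part of this difference in the shares that passed was not tested.

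Both leanings depend in part on how libraries are scaled. With library totals in place of median-of-ratios size factors, the median of all tested genes moved to -0.15 at 2 h and -0.25 at 6 h against 0 h, and to -0.08 at 6 h against 2 h. The members then numbered 5 higher and 27 lower at 2 h against 0 h, 18 higher and 20 lower at 6 h against 0 h, and 32 higher and 15 lower at 6 h against 2 h. Their median at 6 h against 0 h became -0.02, with that of all genes at -0.25. The counts also moved when 1 library was left out, and they were smaller without a 0 h or a 6 h library. At 2 h against 0 h they were 5 higher and 8 lower without 0 h replicate 1, 5 and 7 without 0 h replicate 2, and 6 and 14 without either 6 h library, against 17 and 22 without 2 h replicate 1 and 14 and 24 without 2 h replicate 2. At 6 h against 0 h, 20 members were higher without 0 h replicate 2 and 21 without 6 h replicate 1, against 37 and 36 without the first and the second 2 h library, and at 6 h against 2 h, 7 were lower without 6 h replicate 1 and 5 without 6 h replicate 2. On leaving out each library in turn, 10 of the 33 members that passed at 2 h against 0 h passed every time, namely Chd2, Kdm3a, Ep300 and Smarca5 as higher and Chd8, Chd9, Smarcad1, Smarcd1, Kdm4c and Ehmt1 as lower. Of the 44 at 6 h against 0 h, 28 did so, 20 higher and 8 lower. The other 16, for each of which at least 1 such omission ended the call, were Chd4, Smarcd1, Kat2a, Kat5, Kat6a, Kdm1a, Kdm3b, Kdm4a, Kdm4c, Kdm5a, Kdm5b, Kdm5c, Kdm6a, Kmt2e, Setd6 and Setd7. Of the 48 at 6 h against 2 h, 25 did so, and the other 23 were Chd5, Chd6, Ezh1, Ezh2, Kat14, Kat2a, Kat6a, Kat6b, Kdm4d, Kdm5a, Kdm5b, Kdm5c, Kdm6a, Kmt2a, Kmt2c, Kmt2e, Kmt5a, Kmt5c, Setd5, Setd6, Smarcal1, Smarcc2 and Smarcd3.

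Changes of over 2-fold were fewer. Called genes are those that passed the test with a log2 fold change beyond 1 in either direction, the thresholds of the study. At 2 h against 0 h, Chd2, Kdm3a and Smarca5 were called higher and Kdm8, Setdb2, Smarcad1 and Smarcd1 lower, 3 and 4 of 72, where 3.62% and 5.94% of all tested genes were called higher and lower. At 6 h against 0 h, Chd2, Crebbp, Kdm2a, Kdm3a, Kmt2d, Setd1a and Smarca5 were called higher and Chd1l, Kdm4d and Smarca2 lower, against 9.1% and 10.2% of all tested genes. At 6 h against 2 h, Chd9, Kdm4c, Kmt2b, Kmt2d, Kmt5b, Smarcad1 and Smarcd2 were called higher and Chd1l, Kdm4d and Smarca2 lower, against 10.1% and 8.02% of all tested genes. The shares of members called higher lay near those of all tested genes, and the 3 of 72 called lower in each 6 h comparison were a smaller share than the background.

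**Figure D1:**
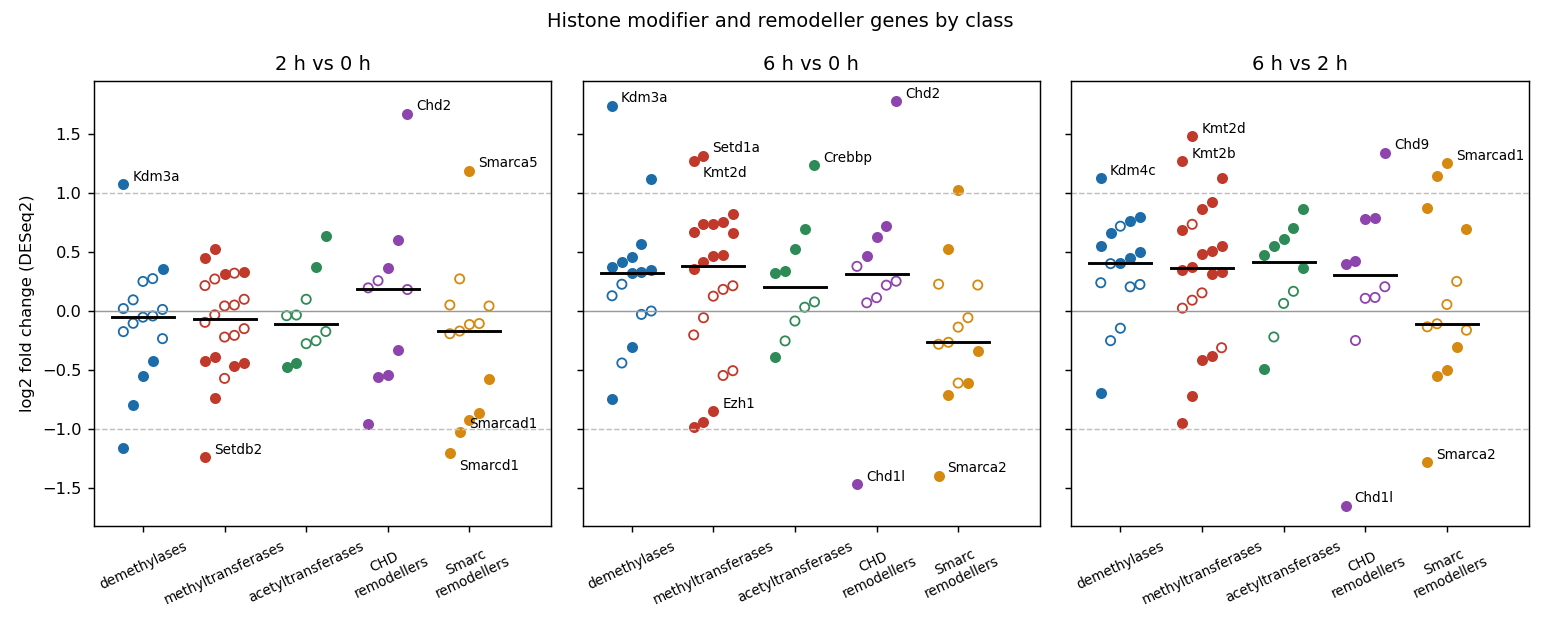
Log2 fold change of each member (DESeq2) by class, with the 3 comparisons side by side. Filled points had an adjusted p of at most 0.05, open points did not, black bars are class medians, and dashed lines mark a 2-fold change. Kdm4d, whose 6 h libraries lie under the floor of 3 counts, is not drawn. The methyltransferase median lies below 0 at 2 h and above 0 at 6 h against 0 h, the demethylase median at 2 h (-0.05) changes sign without 0 h replicate 1, and the Smarc median lies below 0 in all 3 panels.

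Demethylases remove methyl groups from histone lysines, with Kdm1a and Kdm1b using a flavin and the others a JmjC domain. At 2 h against 0 h, 2 of the 17 were higher and 4 lower, and at 6 h against 0 h, 9 were higher and 3 lower, with median log2 fold changes of -0.05 and 0.32. Scaled to library totals, the counts at 6 h became 2 higher and 3 lower, and the 9 became 3 without 0 h replicate 1 or 6 h replicate 2 and 2 without 0 h replicate 2 or 6 h replicate 1. At 2 h, 2 were lower without 0 h replicate 1 and 1 without 0 h replicate 2, and the median was 0.02, -0.10 and -0.18 without 0 h replicate 1, 0 h replicate 2 and 2 h replicate 1. Kdm3a, an H3K9 demethylase that is induced by hypoxia in many cells, rose the most. Its normalized counts were 1372 and 1721 at 0 h, then 3266 and 3246 at 2 h, and 5203 and 5133 at 6 h. Every library was above every library of the earlier times. The log2 fold change was 1.07 ± 0.14 (SE) at 2 h (adjusted p = 1.3e-12) and 1.74 ± 0.14 at 6 h (adjusted p = 6.51e-33), which is 3.34-fold. The 2 h value was 0.93 without 0 h replicate 1 and 0.91 with library totals, under the 2-fold line.

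Kdm2a, a CpG island-binding H3K36 demethylase, rose mostly after 2 h. Its normalized counts were 2924 and 2691 at 0 h, then 3556 and 3616 at 2 h, and 6429 and 5755 at 6 h. The 3 times did not overlap, and the 6 h level was 2.17-fold that at 0 h (log2 fold change 1.12 ± 0.12, adjusted p = 1.54e-20), or 0.87 on the log2 scale with library totals. Its close relative Kdm2b passed in no comparison, with 3070 and 2836 at 0 h and 2918 and 2989 at 6 h. At 6 h against 2 h it did pass as lower with edgeR, TMM factors, library totals or a mean count of at least 10. With a GC correction within groups it passed as higher at 2 h against 0 h and as lower at 6 h against 2 h. Part of the reads of Kdm2b were shared with other genes, and it overlaps A930024E05Rik and Rnf34 on the other strand.

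The JmjC enzymes Kdm3b and Kdm4c fell at 2 h and rose again by 6 h. Both passed as higher at 6 h than at 0 h, but Kdm3b did not pass there with library totals, and Kdm4c (adjusted p = 0.0463) did not with edgeR, TMM factors, library totals, a replicate block or a GC correction. Neither passed there with any 1 of the 0 h or 6 h libraries left out. Kdm4c, an H3K9 and H3K36 demethylase, had normalized counts of 834 and 820 at 0 h, then 517 and 436 at 2 h, and 1027 and 1053 at 6 h. The 2 h libraries were the lowest and the 6 h libraries the highest. The fall at 2 h was 1.73-fold (adjusted p = 1.01e-06), and the rise from 2 h to 6 h was 1.12 ± 0.15 on the log2 scale (adjusted p = 3.47e-13), or 0.94 after a correction for GC content. Kdm3b went from 2797 and 2755 to 1987 and 2162 and then to 3633 and 3582. Kdm4a fell at 2 h, from 3601 and 3740 to 2282 and 2738, and had 2967 and 2962 at 6 h (adjusted p = 0.0412, a pass lost with any 1 of the 0 h or 6 h libraries left out).

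The H3K4 demethylases of the Kdm5 family rose together by 6 h and by modest amounts. The log2 fold changes at 6 h against 0 h were 0.46 ± 0.18 for Kdm5a, 0.42 ± 0.10 for Kdm5b and 0.35 ± 0.12 for Kdm5c, with adjusted p of 0.0295, 0.000136 and 0.00888. None of the 3 passed at 2 h, and none of the 3 passed at 6 h when scaled to library totals. Kdm5a also did not pass at 6 h with edgeR or TMM factors. The X-linked gene Kdm5c, whose loss causes intellectual disability, had 3053 and 3073 normalized counts at 0 h, then 2652 and 3049 at 2 h, and 3837 and 3956 at 6 h. Kdm1a, the LSD1 enzyme of the CoREST complex, had 4214 and 4074 at 0 h and 5321 and 5030 at 6 h (log2 fold change 0.32 ± 0.12, adjusted p = 0.025), which did not pass with library totals. Kdm1b, its relative, went the other way, from 1067 and 972 at 0 h and 1059 and 907 at 2 h to 588 and 627 at 6 h. The 6 h libraries were the lowest, with a log2 fold change of -0.75 ± 0.15 against 0 h (adjusted p = 4.58e-06).

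Of the H3K27 demethylases, Kdm6a passed the test at 6 h and Kdm6b did not, and the difference between them was not tested. Kdm6a, on the X chromosome, had 905 and 806 normalized counts at 0 h, then 1045 and 692 at 2 h, and 1312 and 1229 at 6 h. It rose 1.49-fold by 6 h (adjusted p = 0.0192), which did not pass with library totals or edgeR. Kdm6b had 897 and 922 at 0 h, then 706 and 841 at 2 h, and 835 and 949 at 6 h, and passed in no comparison. With a GC correction it passed as lower at 2 h against 0 h and as higher at 6 h against 2 h. Its log2 fold change at 6 h was -0.03 ± 0.16. Kdm7a could not be read at 2 h, where the replicates gave 1023 and 375 normalized counts against 592 and 563 at 0 h. Kdm8 was called lower at 2 h (78.1 and 63.2 to 23.0 and 40.3, adjusted p = 0.0391), but its adjusted p was 0.434 without 0 h replicate 1, 0.218 without 0 h replicate 2, 0.301 without 2 h replicate 1, 0.116 without 6 h replicate 1 and 0.126 without 6 h replicate 2.

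Kdm4d, an H3K9 demethylase of the Kdm4 family, was at the edge of detection. It had 33 and 36 expected counts at 0 h, then 16 and 8 at 2 h, and 2 and 0 at 6 h. The 6 h libraries lie under a floor of 3 counts per library, and against that floor Kdm4d was at least 9.26-fold lower at 6 h than at 0 h (adjusted p = 0.000414). The same bound against 2 h was 3.77-fold, but that call was lost without 2 h replicate 1 (adjusted p = 0.101) and without 6 h replicate 2 (adjusted p = 0.17).

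The promoters of the members were searched for letters bound by factors that neuronal activity turns on. The letters were TGACGTCA, the full cAMP response element bound by CREB, TGACG, a shorter piece of it, which also lies inside the full one, and TGANTCA, bound by AP-1 factors such as Fos. Windows of 250 bases before to 50 after each start, on both strands, were taken from RefSeq on GRCm38.p6, where 58 of the 72 members matched with 77 windows. TGACGTCA was in 0 of the 77 windows (1.79% of all 32851 windows), TGACG in 23 or 29.9% (20.8% of all) and TGANTCA in 8 or 10.4% (7.81% of all). Kdm3a, which rose the most of the demethylases, holds TGANTCA in 2 windows, and Smarca2, which fell the most among abundant members, holds it in its only window. They are shown because they are the called members with TGANTCA. The motif is in capitals in stretches of 30 bases on GRCm38.p6, which lie at chr6:71632843-71632872 and chr6:71609127-71609156 (both minus strand) for Kdm3a and chr19:26605177-26605206 (plus strand) for Smarca2. The letters begin 175 and 6 bases before the 2 Kdm3a starts and 28 bases after the Smarca2 start. A match of letters is not a bound site.
Kdm3a, first start: gccgtcgtgggTGACTCAgggaggcgggag
Kdm3a, second start: caccataaaggTGACTCAgtccagcctgcc
Smarca2: tgtactctgggTGACTCAgagagggaagat

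Of the 15 members that dipped at 2 h and were higher again at 6 h against 2 h, 12 matched with 17 windows, of which 0 held TGANTCA (7.81% of all windows) and 2, or 11.8%, held TGACG (20.8% of all). With so few windows these shares are given as a description.

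Methyltransferases were the largest class and the one with most members higher at 6 h. At 2 h against 0 h, 4 of the 22 were higher and 6 lower, and at 6 h against 0 h, 12 were higher and 3 lower, with median log2 fold changes of -0.06 and 0.39. With library totals these became 0 higher and 7 lower at 2 h, and 8 higher and 5 lower at 6 h. The counts at 2 h were also 0 higher and 1 lower without 0 h replicate 1, 1 and 1 without 0 h replicate 2, and 1 and 2 without either 6 h library. The median at 2 h was -0.11 and -0.12 without the first and the second 2 h library.

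Members of the Kmt2 and Setd1 families made up 6 of the 12 methyltransferases that were higher at 6 h than at 0 h, and most of these enzymes methylate H3K4 in COMPASS complexes. Kmt2d, which marks enhancers and is mutated in Kabuki syndrome, had 1462 and 1274 normalized counts at 0 h, then 1136 and 1235 at 2 h, and 3237 and 3386 at 6 h. The 6 h libraries were above all others, while 2 h against 0 h did not pass (adjusted p = 0.271), except as lower with library totals and with a GC correction. The log2 fold change was 1.28 ± 0.13 at 6 h against 0 h (adjusted p = 1.53e-21) and 1.48 ± 0.13 against 2 h, and the latter also passed a test against a 2-fold change (adjusted p = 0.00898). Setd1a, a schizophrenia risk gene that writes H3K4me3, had 927 and 868 at 0 h, then 1049 and 1403 at 2 h, and 2218 and 2260 at 6 h. The 3 times did not overlap, and the 6 h level was 2.5-fold that at 0 h (log2 fold change 1.32 ± 0.17, adjusted p = 1.34e-13). Its relative Setd1b passed in no comparison, with 610 and 629 at 0 h and 579 and 612 at 6 h.

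Kmt2b, mutated in a childhood dystonia, first fell and then rose, though the fall did not pass with any 1 of the 0 h or 6 h libraries left out. Its normalized counts were 1315 and 1307 at 0 h, then 848 and 1079 at 2 h, and 2252 and 2396 at 6 h. The 2 h libraries were the lowest and the 6 h libraries the highest, with a log2 fold change of -0.44 ± 0.16 at 2 h (adjusted p = 0.0192) and 1.27 ± 0.15 from 2 h to 6 h (adjusted p = 4.1e-15). Kmt2a, its closest relative, had 5033 and 4947 at 0 h, then 5264 and 5433 at 2 h, and 7143 and 6753 at 6 h. It passed only in the 6 h comparisons, with 0.48 ± 0.10 against 0 h, a pass lost with library totals. Kmt2c rose 1.69-fold by 6 h. Kmt2e passed at 1.28-fold, but not with library totals or with any 1 of the 0 h or 6 h libraries left out. Kmt2e shares reads with other genes and overlaps Srpk2 on the other strand.

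Writers of H4K20 methylation split by enzyme. Kmt5a, which adds the first methyl group, rose by 6 h, from 1294 and 1269 at 0 h and 1540 and 1678 at 2 h to 2026 and 2022. It also passed at 2 h, but not with library totals, with a replicate block or on leaving out any library other than 2 h replicate 1. Kmt5b, which adds the next ones, dipped and rose, from 2255 and 2192 to 1902 and 1488 and then to 3710 and 3727 (the dip passed neither with edgeR nor with any 1 of the 0 h or 6 h libraries left out), with 1.13 ± 0.15 on the log2 scale from 2 h to 6 h (adjusted p = 5.6e-13). Without 2 h replicate 2 that value was 0.98. Kmt5c, which does the same as Kmt5b, fell from 273 and 328 at 0 h to 146 and 167 at 6 h (log2 fold change -0.94 ± 0.22, adjusted p = 6.57e-05). Setd2, which writes H3K36me3 behind RNA polymerase II, rose 1.67-fold by 6 h, from 4479 and 3920 to 7193 and 6809.

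The paired silencing enzymes moved apart. Ezh1 and Ezh2 are alternative catalytic subunits of Polycomb repressive complex PRC2, Ezh2 prevailing in dividing cells and Ezh1 in mature ones. Ezh1 fell through both times, from 925 and 903 to 653 and 667 and then to 532 and 482 normalized counts, with no overlap between times and a log2 fold change of -0.85 ± 0.14 at 6 h (adjusted p = 4.85e-09). Ezh2 had 735 and 755 at 0 h, then 999 and 863 at 2 h, and 1268 and 1106 at 6 h, with 0.67 ± 0.15 at 6 h (adjusted p = 3.61e-05). Of the genes of dividing cells, Top2a and Mcm2 were lower at 6 h than at 0 h, and Mki67, Ccnb1, Cdk1 and Pcna did not pass. At 2 h against 0 h, Pcna (0.46 ± 0.10, adjusted p = 6.74e-05) and Ccnb1 (0.46 ± 0.16, adjusted p = 0.0181) were higher. Cdk1, Mki67, Top2a and Mcm2 did not pass there.

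Ehmt1 and Ehmt2, which form a pair that dimethylates H3K9, moved in opposite directions at 2 h. Ehmt1, the Kleefstra syndrome gene, had 2198 and 2212 normalized counts at 0 h, then 1294 and 1347 at 2 h, and 2583 and 2426 at 6 h. Ehmt2 had 2248 and 2505 at 0 h, then 3080 and 3763 at 2 h, and 2706 and 2809 at 6 h. The 2 h libraries were the lowest for Ehmt1 (log2 fold change -0.74 ± 0.11, adjusted p = 2.41e-10) and the highest for Ehmt2 (0.53 ± 0.14, adjusted p = 0.00184). By 6 h neither differed from 0 h by the test, though both passed as higher with a GC correction. Ehmt2 also did so with a GC correction within groups. The rise of Ehmt2 at 2 h did not pass with library totals. Setdb1, which writes H3K9me3, dipped at 2 h (2704 and 2525 to 1800 and 2096, adjusted p = 0.00494) and was back at 2893 and 2814 at 6 h. Setdb2, a low gene with 96.8 and 87.6 counts at 0 h and 49.9 and 27.9 at 2 h, was called lower at 2 h, but that call was lost on leaving out any library other than 2 h replicate 1, with adjusted p of 0.0527 to 0.249. Beside Ezh1 and Kmt5c, the methyltransferases that were lower at 6 h than at 2 h were Setd5 and Setd6.

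**Figure D2:**
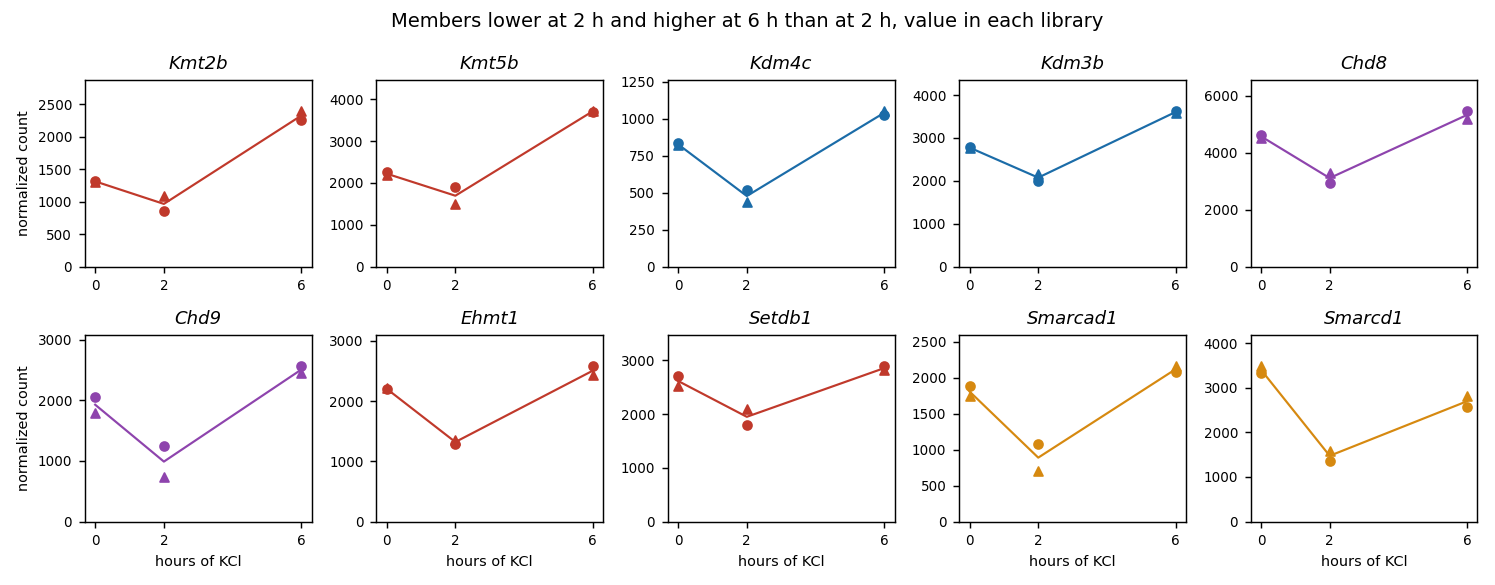
Normalized count of 10 members against hours of KCl, with 1 circle for replicate 1, 1 triangle for replicate 2 and a line through the means. The members were chosen for passing as lower at 2 h and then higher at 6 h against 2 h. Kmt2b and Kmt5b ended above 0 h by the test. Kdm4c and Kdm3b passed as higher and Smarcd1 as lower only with all 0 h and 6 h libraries in the fit. The others ended at levels the test did not separate from 0 h, though Chd8 and Ehmt1 passed as higher with a GC correction.

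Acetyltransferases included both large coactivators. Of the 10, 2 were higher and 2 lower at 2 h, and 5 were higher and 1 lower at 6 h against 0 h, with median log2 fold changes of -0.11 and 0.20. With library totals there were 1 higher and 4 lower at 2 h, with a median of -0.27. At 6 h there were then 3 higher and 2 lower, and the median there was -0.05. With any 1 of the 0 h or 6 h libraries left out there were 3 higher and 0 lower at 6 h. At 2 h there was 1 higher and 0 lower without either 0 h library, and 1 and 1 without either 6 h library. Crebbp, the CREB-binding protein, had 1529 and 1390 normalized counts at 0 h, then 1894 and 1884 at 2 h, and 3623 and 3254 at 6 h. Ep300, its relative p300, had 2310 and 2213 at 0 h, then 3555 and 3468 at 2 h, and 3830 and 3517 at 6 h. Both passed as higher at both times, but Crebbp did not at 2 h with library totals or with any 1 of the 0 h or 6 h libraries left out. Ep300 made most of its rise by 2 h while Crebbp made most of its rise afterwards. At 2 h the log2 fold change was 0.64 ± 0.11 for Ep300 and 0.37 ± 0.12 for Crebbp, and from 2 h to 6 h it was 0.06 ± 0.11 and 0.86 ± 0.12, the difference between the genes not being tested. By 6 h Crebbp was 2.36-fold its 0 h level (adjusted p = 1.59e-22) and Ep300 1.62-fold (adjusted p = 6.75e-10). With library totals the Crebbp value at 6 h was 0.99, just under the line for a call.

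The MYST enzymes and the GCN5 family gave smaller values. Kat7, which acetylates H3K14 and H4, rose from 2126 and 2181 at 0 h to 3084 and 3125 at 6 h (log2 fold change 0.53 ± 0.10, adjusted p = 1.04e-06). Kat6a rose 1.25-fold by 6 h (not with library totals), and Kat6b dipped to 1795 and 1676 at 2 h from 2352 and 2356. Kat5, the Tip60 enzyme, had 1040 and 1109 at 0 h, then 833 and 942 at 2 h, and 1335 and 1382 at 6 h (0.34 ± 0.13, adjusted p = 0.0241, not with library totals or edgeR). Its reads were shared with other genes in all 6 libraries. Kat2a, the GCN5 enzyme of SAGA, was the acetyltransferase that fell by 6 h, from 1783 and 1762 to 1325 and 1380 (-0.39 ± 0.14, adjusted p = 0.0118). Its relative Kat2b, or PCAF, passed in no comparison, with 357 and 331 at 0 h, then 333 and 244 at 2 h, and 356 and 293 at 6 h.

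The CHD remodellers held Chd2, the member with the most positive log2 fold change at 6 h, though Kdm3a lay within its error and was ahead of it without 0 h replicate 2. Of the 10, 3 were higher and 4 lower at 2 h, and 4 were higher and 1 lower at 6 h against 0 h, with median log2 fold changes of 0.19 and 0.32, or 0.03 and 0.07 with library totals. At 2 h the counts were 1 higher and 2 lower without 0 h replicate 2, and the median was 0.30 without 2 h replicate 1 and 0.04 without 2 h replicate 2. Chd2, a remodeller mutated in epileptic encephalopathy (chr7:73426638-73541830, minus strand), had 2208 and 2309 normalized counts at 0 h, then 7258 and 7135 at 2 h, and 8078 and 7434 at 6 h. All treated libraries lay more than 3-fold above the untreated ones, and 2 h and 6 h did not differ by the test (adjusted p = 0.41). The log2 fold change was 1.67 ± 0.10 at 2 h (adjusted p = 4.86e-56) and 1.78 ± 0.10 at 6 h (adjusted p = 1.03e-63), and both passed a test against a 2-fold change. Chd2 overlaps the gene 1810026B05Rik on the same strand and shared reads with other genes in every library, so its value is uncertain to that extent. Chd1, its closest relative, rose 1.52-fold at 2 h and 1.65-fold at 6 h.

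Chd6, Chd7, Chd8 and Chd9, which form one subfamily, all passed as lower at 2 h, though Chd6 did not with any 1 of the 0 h or 6 h libraries left out and Chd7 did not without 0 h replicate 2. Chd9 had 2058 and 1795 normalized counts at 0 h, then 1240 and 737 at 2 h, and 2565 and 2447 at 6 h. Chd8, an autism risk gene, had 4633 and 4515 at 0 h, then 2931 and 3280 at 2 h, and 5467 and 5184 at 6 h. For both genes the 2 h libraries were the lowest and the 6 h libraries the highest. The log2 fold changes at 2 h were -0.33 ± 0.10 for Chd6, -0.54 ± 0.15 for Chd7, -0.56 ± 0.11 for Chd8 and -0.96 ± 0.24 for Chd9, with adjusted p from 7.66e-06 to 0.00635. At 6 h none of the 4 differed from 0 h by the test, and all were higher than at 2 h, Chd9 by 1.34 ± 0.24 (adjusted p = 1.21e-07). With a GC correction Chd7 and Chd8 passed as higher at 6 h than at 0 h.

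Chd3, Chd4 and Chd5 are the alternative motors of the NuRD complex. Chd3 was the second most abundant member per length, at 202 TPM at 0 h, and was higher at 2 h alone, from 17033 and 17892 to 20660 and 24265 normalized counts (adjusted p = 0.0123). Chd4 rose from 4856 and 4704 to 6559 and 6628 by 6 h (log2 fold change 0.46 ± 0.11, adjusted p = 0.000132). Chd5, the neuronal form, had 6972 and 7054 at 0 h, then 7225 and 8851 at 2 h, and 9876 and 11744 at 6 h (0.62 ± 0.15, adjusted p = 0.00015). The Chd3 rise at 2 h and the Chd4 rise at 6 h did not pass with library totals. Chd1l, the ALC1 remodeller that answers to poly(ADP-ribose) at DNA breaks (chr3:97560742-97610203, minus strand), fell late. Its counts were 171 and 174 at 0 h, then 182 and 210 at 2 h, and 59.9 and 64.5 at 6 h, so the 6 h libraries stood well below the rest, with a log2 fold change of -1.47 ± 0.26 against 0 h (adjusted p = 9.89e-08).

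**Figure D3:**
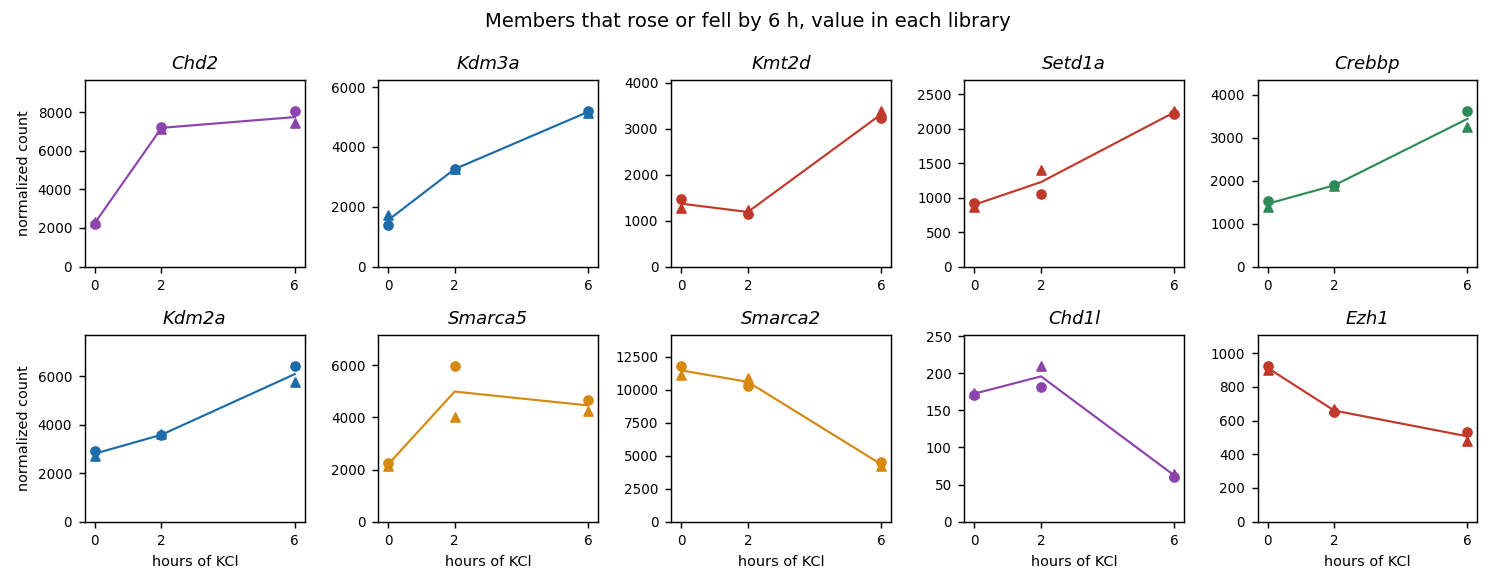
Normalized count of 10 members against hours of KCl, with 1 circle for replicate 1, 1 triangle for replicate 2 and a line through the means, on axes that start at 0. Chd2 and Smarca5 were near their 6 h level by 2 h, Kmt2d and Setd1a rose mostly after 2 h, and Smarca2 and Chd1l were lowest in the 6 h libraries.

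The Smarc genes, which encode subunits of the SWI/SNF (BAF) complex and several ATPases related to it, were the class that leaned down at both times. Of the 13, 1 was higher and 5 lower at 2 h, and 2 were higher and 4 lower at 6 h against 0 h. Those shares were 7.69% and 38.5% at 2 h, against 12.3% and 14.2% of all tested genes. At 6 h they were 15.4% and 30.8%, against 23.7% and 21.7%. The median log2 fold change was -0.17 at 2 h and -0.27 at 6 h. With library totals 1 was higher and 8 lower at 2 h, and 2 were higher and 9 lower at 6 h. The counts at both times moved on leaving out 1 library, the number lower at 6 h in either direction. The median at 2 h was -0.10 without 2 h replicate 1. Summed over the class, levels per length went from 1120 and 1115 TPM at 0 h to 899 and 929 at 2 h and 784 and 792 at 6 h. Much of the fall at 6 h was Smarca2, and the other 12 summed to 825 and 818 at 0 h, then 641 and 690 at 2 h, and 659 and 671 at 6 h. The other 4 classes each summed to more TPM in both 6 h libraries than in both 0 h libraries.

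Smarca2, the BRM ATPase and an alternative to Smarca4 (BRG1) in BAF (chr19:26605050-26778322, plus strand), was the most abundant member per length and fell the most among abundant members. Its normalized counts were 11793 and 11120 at 0 h, then 10277 and 10894 at 2 h, and 4493 and 4198 at 6 h. At 2 h the libraries lay a little under those at 0 h (adjusted p = 0.485, lower by the test with library totals), and at 6 h both lay far below all others. The fall at 6 h was 2.64-fold (log2 fold change -1.40 ± 0.10, adjusted p = 3.2e-39) and passed a test against a 2-fold change (adjusted p = 0.00347). Smarca4 had 7371 and 7595 at 0 h, then 6073 and 7027 at 2 h, and 6554 and 7063 at 6 h, and passed in no comparison, although it passed as lower at 2 h with library totals, with a GC correction and without 2 h replicate 2, at 6 h against 0 h as lower with library totals, and at 6 h against 2 h as higher with a GC correction.

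The ISWI ATPases Smarca1 and Smarca5 moved apart. Smarca5, or SNF2H (chr8:80698507-80739497, minus strand), had 2247 and 2137 at 0 h, then 5979 and 4009 at 2 h, and 4684 and 4242 at 6 h. Every treated library was above the untreated ones, with 1.19 ± 0.20 at 2 h (adjusted p = 3.97e-08) and 1.03 ± 0.20 at 6 h (adjusted p = 1.37e-06). It has a pseudogene, its counts were not whole in any library, and its value fell to 0.86 at 2 h without 2 h replicate 1 and to 0.77 with a GC correction, 0.78 with library totals, 0.99 without 0 h replicate 2 and 0.95 without 6 h replicate 1 at 6 h. Smarca1, or SNF2L, had 2022 and 1642 at 0 h, then 1303 and 712 at 2 h, and 1219 and 1181 at 6 h, and passed as lower at 2 h (adjusted p = 0.00721), though not with edgeR or without 0 h replicate 1. At 6 h against 0 h its adjusted p was 0.0506, and it passed as lower there with TMM factors, library totals, a replicate block and a GC correction, and without either 2 h library.

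Core BAF subunits did not move as one. Smarcd1 had 3318 and 3486 normalized counts at 0 h, then 1368 and 1579 at 2 h, and 2573 and 2820 at 6 h. It fell 2.31-fold at 2 h (log2 fold change -1.21 ± 0.13, adjusted p = 8.57e-19) and passed as lower at 6 h against 0 h, though not there with a GC correction or with any 1 of the 0 h or 6 h libraries left out. From 2 h to 6 h it rose by 0.87 ± 0.13 on the log2 scale. Of its alternatives in the complex, Smarcd2 also dipped and rose, from 174 and 159 at 0 h to 89.9 and 85.8 at 2 h and 201 and 187 at 6 h, its dip not passing without either 0 h library. Smarcd3, the form enriched in neurons, had 1662 and 1636 at 0 h, then 1796 and 2190 at 2 h, and 1379 and 1334 at 6 h. Smarcb1 fell from 2088 and 2248 to 1304 and 1604 at 2 h and 1231 and 1420 at 6 h (-0.71 ± 0.16, adjusted p = 3.26e-05). Smarcc1, the scaffold also known as BAF155, rose to 6912 and 6448 at 6 h from 4842 and 4442 (0.53 ± 0.11, adjusted p = 5.73e-06), while Smarcc2, or BAF170, had 7826 and 7840 at 0 h, then 7464 and 8677 at 2 h, and 6282 and 6755 at 6 h and passed as lower at 6 h than at 2 h (adjusted p = 0.0266), though not with any 1 of the 0 h or 6 h libraries left out. Smarce1 held between 3504 and 3871 in the 6 libraries.

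Smarcad1, a remodeller of silent chromatin, fell at 2 h and returned. It had 1879 and 1739 normalized counts at 0 h, then 1074 and 704 at 2 h, and 2075 and 2164 at 6 h. The 2 h libraries were the lowest, with -1.02 ± 0.21 at 2 h (adjusted p = 8.75e-06) and 1.25 ± 0.21 from 2 h to 6 h (adjusted p = 1.26e-08). The fall was 0.77 on the log2 scale without 2 h replicate 2 and 0.96 without 0 h replicate 1, and the rise was 0.99 without 2 h replicate 2. Smarcal1, which acts at stalled replication forks, fell by 6 h from 1119 and 1154 to 763 and 728.

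Because related members can replace each other in a complex, the ratio of their TPM values was taken in each library. Smarca2 to Smarca4 was 2.72 and 2.71 at 0 h, then 3.36 and 2.72 at 2 h, and 1.51 and 1.35 at 6 h. Smarcc2 to Smarcc1 was 2.00 and 2.18 at 0 h, then 2.26 and 2.56 at 2 h, and 1.13 and 1.3 at 6 h. Both ratios were lowest in the 6 h libraries. Smarcd3 to Smarcd1 was 1.03 and 0.947 at 0 h, then 2.78 and 2.92 at 2 h, and 1.18 and 0.939 at 6 h. Ehmt2 to Ehmt1 was 0.929 and 1.10 at 0 h, then 2.27 and 2.68 at 2 h, and 1.11 and 1.15 at 6 h. These ratios were highest at 2 h and close to their first level again at 6 h. Ezh1 to Ezh2 was 0.580 and 0.589 at 0 h, then 0.317 and 0.417 at 2 h, and 0.220 and 0.251 at 6 h, with no overlap between times. Crebbp to Ep300 was 0.484 and 0.502 at 0 h, then 0.443 and 0.450 at 2 h, and 0.776 and 0.731 at 6 h. The ratios are given as a description, and no test was run on them.

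**Figure D4:**
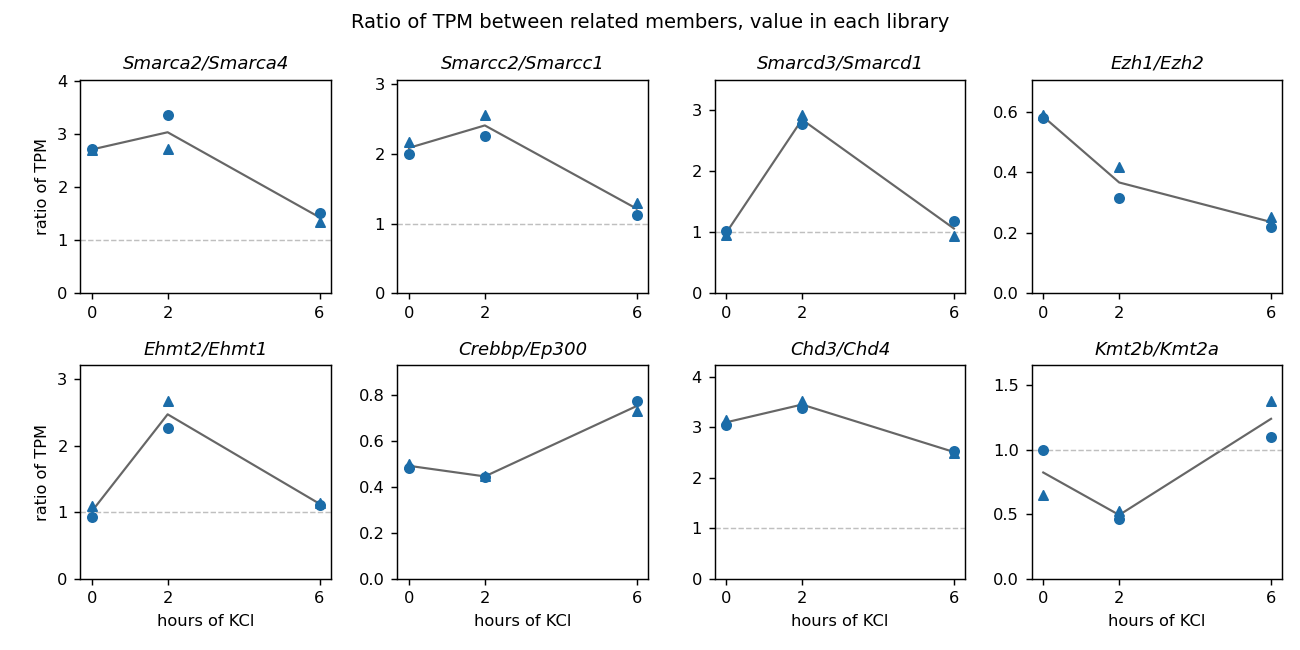
Ratio of TPM between 8 pairs of related members against hours of KCl, with 1 circle for replicate 1, 1 triangle for replicate 2, a line through the means and a dashed line at equal levels. Smarca2/Smarca4, Smarcc2/Smarcc1 and Chd3/Chd4 are lowest at 6 h, Smarcd3/Smarcd1 and Ehmt2/Ehmt1 peak at 2 h, and Ezh1/Ezh2 falls at both times.

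Read across the 3 comparisons, the members formed a few courses. The most common, in 16 members, was no pass at 2 h and a rise at 6 h over both earlier times, as for Kmt2a, Kmt2d, Kdm5a, Kdm5b, Kdm5c, Kdm6a, Kat7 and Smarcc1. That is 22.2% of the members, where 9.71% of the 16404 genes with an adjusted p in all comparisons took this course. A dip at 2 h and a rise from 2 h to 6 h, with no pass at 6 h against 0 h, was seen in 10 members. Among them were Ehmt1, Setdb1, Kat6b, Smarcad1 and Chd6 to Chd9. A dip followed by a rise above 0 h was seen in 4 others. Those shares were 13.9% and 5.56%, against 5.32% and 2.24% of all these genes. With a GC correction Ehmt1, Chd7 and Chd8 passed as higher at 6 h than at 0 h. A fall at 6 h from both earlier times was seen in 8, including Smarca2, Chd1l, Kdm1b, Kat2a and Kmt5c, or 11.1% against 13.8%. A rise at 2 h that held or grew was seen in 10, or 13.9% against 8.69%, and Ezh1 was the member that fell at both steps. Chd3 and Ehmt2 were higher, and Kdm8, Setdb2 and Smarca1 lower, at 2 h against 0 h alone, Kdm4a, Smarcb1 and Smarcd1 were lower at both times than at 0 h, Chd4 and Kdm1a were higher at 6 h against 0 h alone, and Setd5, Smarcc2 and Smarcd3 were lower at 6 h against 2 h alone. A set of 10 passed in no comparison (13.9% against 37.4%), with log2 fold changes from -0.57 to 0.40, and of these Kat2b and Setd1b passed under no alternative either. None of the 72 passed as higher at 2 h against 0 h and as lower at 6 h against 2 h, a course that 2.57% of all these genes took. That count depends on the setting, with 2 members (Chd3 and Ehmt2) on this course by edgeR or TMM factors, 1 (Ehmt2) with a replicate block, 2 (Setd5 and Smarca5) with a GC correction, 1 (Smarca5) with that correction and a replicate block, 5 (Chd3, Ehmt2, Kdm2b, Setd5 and Smarcd3) both with a GC correction within groups and without 2 h replicate 1, and 2 (Kdm7a and Smarca5) without 2 h replicate 2. The shares are a description with no test, and the members counted in a course depend on calls that leaving out 1 library can end. The part of the members' higher counts in these shares was not tested.

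The members shared features that the symbol rule did not use. Their longest annotated transcripts had a median of 5928 bases against 3439 for the 15016 protein-coding genes tested, and their median level at 0 h was 30.2 TPM against 15.1. The 32 that were higher at 6 h than at 0 h had a median of 7007 bases and a GC content of 48.1%, and the 12 that were lower had 3655 bases and 51.7%. Levels at 0 h ran from 296 TPM for Smarca2 to 0.88 TPM for Kdm4d. Transcript mix, read from the effective length that RSEM gives to each gene, was also compared with limma for the 68 members averaging 100 expected counts or more. In each of the 3 comparisons 0 members were called, where 0.0356%, 0.525% and 0.116% of all 11233 tested genes were called at 2 h against 0 h, 6 h against 0 h and 6 h against 2 h. At an unadjusted p under 0.05 there were 9, 16 and 9 members, or 13.2%, 23.5% and 13.2%, against 8.08%, 14.0% and 12.2% of all tested genes. The effective length of Chd6 was 6543 and 5954 bases at 0 h, then 8677 and 7961 at 2 h, and 6640 and 6102 at 6 h, higher in both 2 h libraries than in the rest (adjusted p = 0.313 against 0 h). With a replicate block its length was called at 6 h against 2 h (-0.38 on the log2 scale, adjusted p = 0.0417), the pairing of replicate numbers not being given by the labels.

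Partners of these enzymes outside the symbol rule were read from 10 lists by role, of which 168 of 169 genes were found. Over all of them, 34 were higher and 32 lower at 2 h (20.2% and 19.0%), and 68 were higher and 33 lower at 6 h against 0 h (40.5% and 19.6%), beside the 12.3% and 14.2%, and 23.7% and 21.7%, of all tested genes. Of the 10 COMPASS partners, which work with the Kmt2 and Setd1 enzymes, 6 were higher and 1 lower at 6 h against 0 h. Cxxc1, which guides Setd1a to CpG islands, had 521 and 517 normalized counts at 0 h, then 818 and 906 at 2 h, and 1166 and 1292 at 6 h (log2 fold change 1.24 ± 0.14). Of the 25 Polycomb genes, 14 were higher and 2 lower, and Eed, a core PRC2 subunit beside Ezh1 and Ezh2, rose from 336 and 330 to 948 and 825 (1.41 ± 0.17, adjusted p = 1e-15). Of the 21 BAF subunits outside the Smarc genes, 6 were higher and 4 lower. Of the 27 acetyltransferase partners 14 were higher and 5 lower, of the 18 deacetylases and sirtuins 4 and 3, and of the 23 other lysine and arginine methyltransferases 6 and 10. Of the 7 NuRD partners 2 were higher and 2 lower, of the 13 other JmjC genes and LSD1 partners 4 and 3, of the 14 other remodellers 8 and 1, and of the 10 bromodomain readers 4 and 2.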

How the data were processed

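Poly(A) RNA of 6 libraries (3 times, 2 replicates described by the study as biological) was sequenced as stranded paired-end reads. Per the submitters' processing notes and the study's methods, the authors trimmed the reads and estimated expression with RSEM 1.3.0 and Bowtie2 2.2.9 on mm10. The annotation release and strand setting are not given in the sources used here. The expected counts deposited by the authors are unnormalized estimates that need not be whole. The TPM values deposited by the authors are scaled for length and library. Also deposited were effective lengths in bases, which average the transcripts of a gene by abundance.

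Symbols, positions and overlaps came from GENCODE M21 (GRCm38), which may differ from the authors' release. Of the 72 members, 13 had non-whole counts in some library and 6 in all, which marks reads shared with other genes; 1 overlaps a gene on the same strand and 10 on the other strand, and 4 had a mean expected count under 100. Expected counts were rounded and tested in 1 fit of all 6 libraries with DESeq2 1.42.0 in R 4.3.3 (Wald test, group as the only term, median-of-ratios size factors, Benjamini-Hochberg adjustment over all genes kept by independent filtering), after the study's methods. Log2 effective length was tested with limma 3.58.1 over genes averaging 100 expected counts or more, a call needing an adjusted p of at most 0.05 and a log2 ratio of at least 0.2 in size. Values against a group under 3 counts per library are bounds. Sequencing depth covers counting error only. The p-values weigh each change against 1 estimate of spread per gene, which rests on 2 replicates per group. That estimate was shared by all times, though the 2 h replicates stood further apart than the others. The tests were tried on simulated data.

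The members and lists were chosen with earlier results of these data known. Any member could be named. Full values were given for called members, for a fixed set of well-known members, and otherwise for at most 3 members per class and comparison with the largest changes. Alternatives were edgeR 4.0.16 with TMM factors, DESeq2 with TMM factors or library totals, a mean count of at least 10, a test against a 2-fold change, a replicate block, a GC correction over 20 GC bins and leaving out each library. The GC correction within groups and the count over members with whole counts were added after seeing the data. The motif letters were searched in RefSeq promoter windows on GRCm38.p6.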

Additional observations from a re-analysis of the deposited data

How the results depend on the processing

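Over 15 alternatives, 216 member results gave 3051 values, of which 2621 kept their side of the threshold, 284 fell short of it, 143 passed it newly and 3 reversed. A change of sign in a value that passed neither before nor after was not counted as reversed. The reversed values all came without 2 h replicate 1, and on leaving out each library the log2 fold change ran from -0.63 to 0.81 for Kdm7a at 2 h against 0 h, from -0.68 to 0.76 for Kdm7a at 6 h against 2 h, and from -0.25 to 0.28 for Setd2 at 2 h against 0 h. The cause was not tested.

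With library totals, members at 2 h against 0 h numbered 5 higher and 7 called lower, and at 6 h against 0 h 18 higher, 20 lower, 4 called higher and 6 called lower. In a test against a 2-fold change, 1 member was called higher and 0 lower at 2 h against 0 h, 2 higher and 2 lower at 6 h against 0 h, and 1 higher and 0 lower at 6 h against 2 h. Over members with whole counts alone, 1 was called higher at 2 h and 4 at 6 h against 0 h, since fewer genes enter. Leaving out 1 library, the counts higher and lower ran from 5 to 17 and 7 to 24 at 2 h against 0 h, 20 to 37 and 8 to 16 at 6 h against 0 h, and 24 to 38 and 5 to 14 at 6 h against 2 h. Called lower at 2 h against 0 h ran from 1 to 5.

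Replicate numbers are shared by name only. The correlation of replicate differences was 0.25, -0.01 and 0.14 between the 3 pairs of times, and 0.09, -0.06 and 0.04 after the GC correction. With a replicate block the counts over all 72 members stayed within 1.5 times, though acetyltransferases lower at 2 h went from 2 to 1 and demethylases called lower at 2 h from 1 to 0, and 1 effective length was called at 6 h against 2 h (Chd6, -0.38 on the log2 scale, adjusted p = 0.0417) where 0 were called without it. The replicate log2 ratio followed GC content most strongly at 2 h (Spearman's rho -0.73 across 12290 genes, against -0.39 at 0 h and -0.28 at 6 h), which is a limit on the 2 h values.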

Other observations

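Some chromatin genes outside the symbol rule changed by more than most of the members. They were read from the 10 lists by role, and some of those called are described here. At 6 h against 0 h, 18 of the 168 listed genes were called higher and 15 lower. Of all tested genes, 9.1% and 10.2% were called higher and lower. Baz1a, a subunit that partners the ISWI ATPase Smarca5 in the ACF remodeller, had 99.4 and 117 normalized counts at 0 h, then 698 and 540 at 2 h, and 982 and 843 at 6 h. Every treated library stood above the untreated ones, with log2 fold changes of 2.51 ± 0.22 (SE) at 2 h and 3.07 ± 0.21 at 6 h (adjusted p = 2.37e-44). Jade2, a scaffold for the acetyltransferase Kat7, had 87.0 and 102 at 0 h, then 384 and 486 at 2 h, and 77.0 and 72.1 at 6 h. It was thus high at 2 h alone, with 2.2 ± 0.24 at 2 h and -2.54 ± 0.25 from 2 h to 6 h. Suv39h2, an H3K9 trimethylase, had 207 and 235 at 0 h, then 724 and 526 at 2 h, and 408 and 376 at 6 h.

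Of the 18 deacetylases and sirtuins, 3 were called higher and 2 lower (Hdac10 and Sirt5) at 6 h against 0 h. Of all tested genes, 9.1% and 10.2% were called. The 3 called higher, Hdac4, Hdac5 and Hdac9, are 3 of the 4 class IIa genes. The other, Hdac7, had 257 and 238 normalized counts at 0 h and 278 and 247 at 6 h, with 0.09 ± 0.25 on the log2 scale (adjusted p = 0.817). Hdac9 had 734 and 655 normalized counts at 0 h, then 616 and 533 at 2 h, and 3837 and 4288 at 6 h, a log2 fold change of 2.55 ± 0.14 at 6 h. Hdac4 had 1079 and 1145 at 0 h and 2394 and 2404 at 6 h, and Hdac5 had 1240 and 1232 at 0 h and 2399 and 2746 at 6 h. In each of these 3 genes both 6 h libraries were above both 0 h libraries. Sirt5, a mitochondrial deacylase, fell from 214 and 227 at 0 h to 27.8 and 29 at 6 h, with -2.95 ± 0.30 on the log2 scale. Of the Polycomb genes, Pcgf1 and Phc2 dipped at 2 h, Pcgf1 from 177 and 181 to 31.0 and 58.9 and Phc2 from 1348 and 1428 to 522 and 654, and at 6 h they had 141 and 134, and 2145 and 2405.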
